A study of Mus musculus with 6 samples.

Results

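Interferon regulatory factors are transcription factors that carry interferon and pathogen signals to DNA, and 7 of them, Irf1, Irf2, Irf3, Irf4, Irf5, Irf7 and Irf8, are described here in mouse tumors. They were taken by their symbols from a count table of 23122 genes in which all 7 had a row. The 6 samples were CT26 tumors, grown under the skin of female BALB/c mice aged 6 to 8 weeks from 500000 injected cells of this murine colorectal cancer line. TP-18, which the series title calls a dual antagonist of the prostaglandin E2 receptors EP2 and EP4, was given by mouth at 50 mg/kg once daily for 3 weeks in one group, and the other group received vehicle. Mice were assigned to the groups at random once tumors measured 100 to 200 mm3, and 3 tumors per group were sequenced. CT26 is a single line carried in hosts with a functioning immune system, so each library mixes RNA of the line with RNA of host cells, and the labels do not say that each tumor came from its own mouse.

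Members of the family share an N-terminal DNA-binding domain that reads variants of one element, the interferon-stimulated response element (ISRE), and differ in what activates them. IRF1 is made in response to interferon gamma, whose signal reaches promoters at a gamma-activated site (GAS), and it then switches on antigen presentation and chemokine genes. IRF2 binds the same sites and mostly opposes it. IRF3 and IRF7 lie dormant in the cytoplasm until the kinases TBK1 and IKK epsilon phosphorylate them downstream of nucleic acid sensors, and then induce type I interferon. IRF5 acts downstream of Toll-like receptors on inflammatory cytokine genes. IRF4 and IRF8 are largely restricted to blood cells and bind DNA weakly alone, pairing with factors such as PU.1 and BATF, IRF4 in activated lymphocytes and plasma cells and IRF8 in dendritic cells and monocytes.

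Libraries held 35347034 to 36489081 counts in TP-18 tumors and 34813482 to 35163739 in vehicle tumors, and all 7 members passed the filter on low counts. Levels are given as CPM, the count relative to the library total after TMM scaling. Of the colorectal and epithelial markers, Cd44 and Krt20 were abundant, at 554 ± 47.0 and 203 ± 20.7 CPM in TP-18 tumors and 832 ± 116 and 307 ± 40.5 CPM in vehicle tumors (SD, n = 3 each), and both fell, though without TP-18 1, TP-18 3 or vehicle 2 the list had 0 calls. Krt18 and Cdh1 also passed the filter but were not called, and of the 4 tested markers 1 had a positive log2 change. Krt8, Krt19, Epcam, Vil1 and Cdx2 did not pass, with group means of 0.0208 to 1.12 CPM. By edgeR's quasi-likelihood test, 7.09% of the 14189 genes tested were called higher in TP-18 tumors and 5.26% lower, at an adjusted p under 0.05. Groups of 3 did not overlap for 35.8% of genes.

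Of the 7 members, 4 rose, Irf1, Irf4, Irf5 and Irf8, and 0 fell, where 12.4% of all tested genes were called in either direction. The median log2 change of the 7 was 1.10, against -0.01 for all tested genes. All 3 TP-18 tumors had more Irf7 than the vehicle tumors, but it missed the threshold, as did Irf2, and Irf3 overlapped between the groups. In 6 of the 7 genes the groups did not overlap, with the TP-18 tumors on the higher side, as in 18% of all tested genes. The count of 4 became 2, namely Irf1 and Irf8, when TP-18 1, TP-18 2, TP-18 3 or vehicle 1 was left out. It was 3 without vehicle 2 and 5 without vehicle 3. The 7 members were chosen with earlier results of these data known, so their share beside that of all genes is descriptive.

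**Figure D1:**
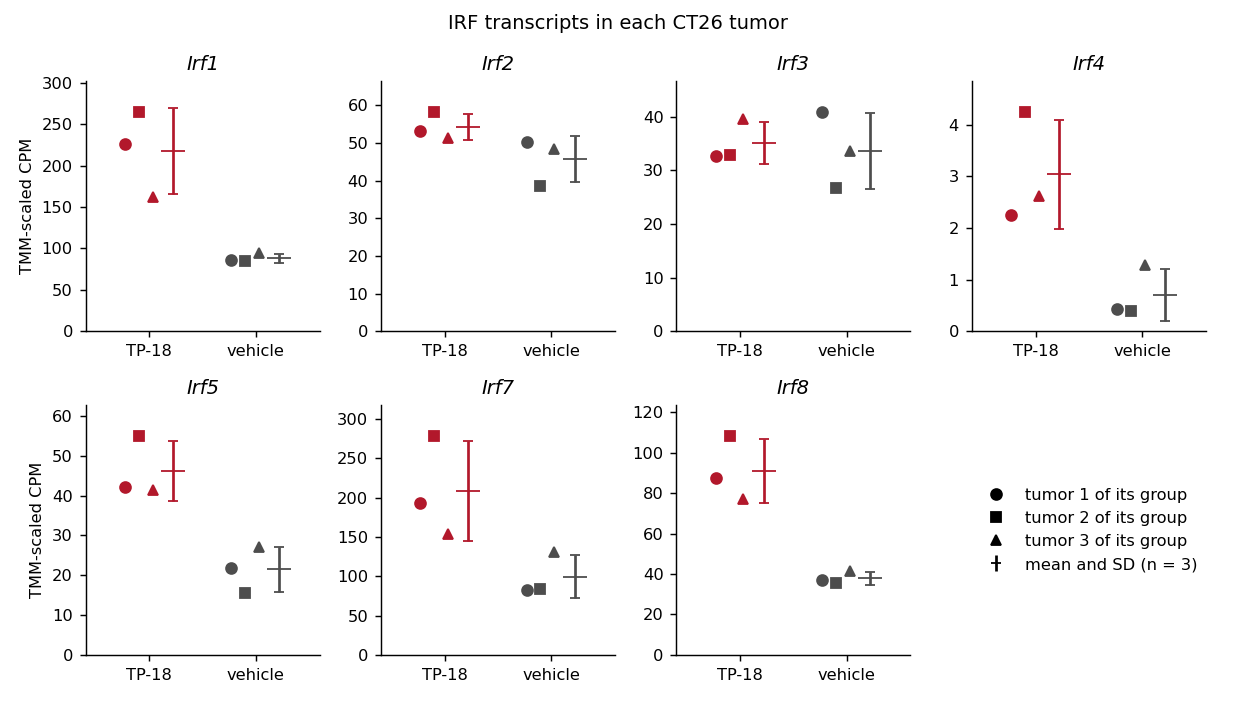
TMM-scaled CPM of each IRF transcript in the 3 TP-18 and the 3 vehicle tumors, with a marker for each tumor and a bar for the mean and SD. Irf1 and Irf8 sit at 162 to 265 and 77.0 to 108 CPM in TP-18 tumors, well above vehicle, while Irf3 overlaps.

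Irf1 (Entrez 16362, chromosome 11, 53770014 to 53778374 in GRCm38.p6, plus strand), the interferon gamma-induced activator, had 8414, 9666 and 6337 counts in TP-18 tumors, against 3005, 2773 and 3025 in vehicle tumors. As CPM these were 226, 265 and 162 in TP-18 tumors and 85.5, 84.9 and 94.5 in vehicle tumors. The vehicle values lay close together and the lowest TP-18 tumor, TP-18 3, was 1.72 times the highest vehicle tumor. The mean was 218 ± 51.6 CPM in TP-18 and 88.3 ± 5.35 CPM in vehicle tumors (SD, n = 3 each). The log2 change was 1.30 ± 0.17 (SE), a 2.47-fold difference, with an adjusted p of 0.00604 by edgeR's quasi-likelihood test. It stayed under the threshold whichever library was left out, with an adjusted p of at most 0.0357 (without vehicle 2).

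Irf8 (Entrez 15900, chromosome 8, 120736358 to 120756694, plus strand), the factor of dendritic cells and monocytes, had the smallest p of the 7 and stood at place 72 of all tested genes by p. It measured 87.2, 108 and 77.0 CPM in TP-18 tumors and 36.8, 35.5 and 41.6 CPM in vehicle tumors. The coefficient of variation was 17.5% in TP-18 and 8.55% in vehicle tumors, and the lowest TP-18 tumor was 1.85 times the highest vehicle tumor. The log2 change was 1.26 ± 0.13, 2.39-fold, with an adjusted p of 0.00259 by edgeR, and leaving out single libraries gave 0.00438 to 0.0189.

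The promoters of Irf1 and Irf8 are shown because these are the members whose calls held in every such fit, and that of Irf2 because it carries the same kind of element but its gene missed the threshold. Each runs from 250 bases before to 50 bases after a transcript start in RefSeq's annotation of GRCm38.p6, 5′ to 3′ on the plus strand, at chr11:53769764-53770063, chr8:120736108-120736407 and chr8:46739495-46739794. Capitals mark matches to GAS (TTCNNNGAA), the ISRE core (GAAA, 2 bases of any kind and GAAA again) and the ETS-IRF composite element (GGAA, 2 bases of any kind and GAAA), searched on both strands.
Irf1: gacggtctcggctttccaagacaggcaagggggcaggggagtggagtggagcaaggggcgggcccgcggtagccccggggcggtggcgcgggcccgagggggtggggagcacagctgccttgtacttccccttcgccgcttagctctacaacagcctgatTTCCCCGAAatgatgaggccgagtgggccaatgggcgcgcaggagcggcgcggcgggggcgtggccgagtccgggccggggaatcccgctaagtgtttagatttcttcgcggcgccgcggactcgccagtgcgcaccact
Irf8: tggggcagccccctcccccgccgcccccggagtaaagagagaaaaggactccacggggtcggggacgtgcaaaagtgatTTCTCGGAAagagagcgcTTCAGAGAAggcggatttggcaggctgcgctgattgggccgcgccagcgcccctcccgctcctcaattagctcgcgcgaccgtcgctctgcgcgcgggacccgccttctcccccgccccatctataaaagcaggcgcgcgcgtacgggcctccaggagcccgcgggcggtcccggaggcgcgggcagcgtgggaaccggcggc
Irf2: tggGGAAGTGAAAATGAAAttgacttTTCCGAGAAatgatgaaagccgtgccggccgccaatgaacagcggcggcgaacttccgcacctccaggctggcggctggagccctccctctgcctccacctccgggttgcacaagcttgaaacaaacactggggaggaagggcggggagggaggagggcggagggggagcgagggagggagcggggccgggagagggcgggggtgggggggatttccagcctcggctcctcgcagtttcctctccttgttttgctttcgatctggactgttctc

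The Irf1 promoter held 1 GAS match, TTCCCCGAA, at positions -90 to -82 counted from the start. That of Irf8 held 2, TTCTCGGAA at -171 to -163 and TTCAGAGAA at -153 to -145. In Irf2 an ETS-IRF composite match at -247 to -238 overlapped an ISRE core match at -241 to -232, and a GAS match, TTCCGAGAA, followed at -224 to -216. Of the 32851 promoters of the same length in the RefSeq table, 8.30% held a GAS match, 3.44% an ISRE core match and 2.72% an ETS-IRF composite match. The windows of Irf3, Irf4, Irf5 and Irf7 and a second start each of Irf1 and Irf8 held none of these letters, which says nothing of binding outside them. The Irf5 window began at 29526375, inside the gene, so bases before the gene's first position, 29526130, were not searched. A match is a string of letters and no evidence of binding.

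Irf2 (Entrez 16363, chromosome 8, 46739745 to 46847458), the antagonist of IRF1, measured 53.3, 58.2 and 51.4 CPM in TP-18 tumors and 50.3, 38.7 and 48.3 CPM in vehicle tumors. The groups were barely separated, since the lowest TP-18 tumor was only 1.02 times vehicle 1. The log2 change of 0.25 ± 0.11 had an adjusted p of 0.188 by edgeR. Within each tumor the log2 ratio of Irf1 to Irf2 was 2.08, 2.18 and 1.65 in TP-18 tumors and 0.76, 1.12 and 0.96 in vehicle tumors. That ratio was higher by 1.02 in TP-18 tumors, without overlap (exact two-sided permutation p = 0.1, the smallest that 3 against 3 allows). The antisense genes Gm31172 and Gm39170 share 4262 and 3697 bases with the Irf2 locus, and Gm31172 has no row in the count table. Reads of Irf2 and of these genes cannot be told apart there if counting ignored strand, which the sources used here do not give.

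Irf7 (Entrez 54123, chromosome 7, 141263183 to 141266499, minus strand), the amplifier of type I interferon, had 193, 278 and 154 CPM in TP-18 tumors, against 82.9, 84.2 and 131 CPM in vehicle tumors. Vehicle 3 stood well above the other vehicle tumors, and the lowest TP-18 tumor was 1.18 times its level. The mean was 208 ± 63.6 CPM in TP-18 and 99.4 ± 27.4 CPM in vehicle tumors. The log2 change was 1.07 ± 0.28, 2.10-fold, with an adjusted p of 0.0575 by edgeR's quasi-likelihood test. Without vehicle 3 the change was 1.33 and the adjusted p 0.0309. DESeq2 with all 6 tumors gave 7.57e-05 and limma-voom 0.0349. Within edgeR, non-robust moderation gave 0.0376 and upper-quartile scaling 0.0483. The call on Irf7 thus depended on the tool and its settings.

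Irf3 (Entrez 54131, chromosome 7, 44997648 to 45002848), the partner of IRF7 that cells hold ready before any signal, measured 32.6, 32.9 and 39.6 CPM in TP-18 tumors and 40.8, 26.6 and 33.6 CPM in vehicle tumors. The highest value of all was in vehicle 1 and the lowest in vehicle 2. The log2 change of 0.06 ± 0.16 (edgeR adjusted p = 0.842) became -0.04 without TP-18 3 and -0.08 without vehicle 2.

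Irf5 (Entrez 27056, chromosome 6, 29526130 to 29541869), the factor of Toll-like receptor signals in myeloid cells, had 42.2, 55.0 and 41.4 CPM in TP-18 tumors and 21.9, 15.6 and 27.0 CPM in vehicle tumors. TP-18 2 was the highest and vehicle 2 the lowest, and the groups did not overlap. The log2 change was 1.10 ± 0.21, 2.15-fold, with an adjusted p of 0.0209 by edgeR. That call was lost without TP-18 1 (0.0512), TP-18 2 (0.0567), TP-18 3 (0.0578) or vehicle 1 (0.0520), while the change stayed between 0.92 and 1.31. Its locus shares 1043 bases with Tnpo3 on the other strand.

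Irf4 (Entrez 16364, chromosome 13, 30749233 to 30766981), the factor of activated lymphocytes and plasma cells, was the scarcest member, with 84, 155 and 102 counts in TP-18 tumors and 15, 13 and 41 counts in vehicle tumors. These were 2.26, 4.24 and 2.62 CPM in TP-18 tumors and 0.427, 0.398 and 1.28 CPM in vehicle tumors. Vehicle 3 again stood above the other vehicle tumors. The log2 change of 2.11 ± 0.52, 4.33-fold, was the largest estimate of the 7 and the least precise, with an adjusted p of 0.0366 by edgeR. The call was lost without TP-18 1 (0.0660), TP-18 2 (0.105), TP-18 3 (0.0947), vehicle 1 (0.0640) or vehicle 2 (0.118), and without vehicle 3 the change was 2.88 with an adjusted p of 0.0105. The log2 ratio of Irf4 to Irf8 was -4.99, -4.52 and -4.64 in TP-18 tumors and -5.33, -5.32 and -4.56 in vehicle tumors, a difference of 0.36 with overlap (exact two-sided permutation p = 0.3). These ratios add 0.5 CPM to each level, which exceeds Irf4 in vehicle 1 and vehicle 2, and with no such addition, a choice made after seeing the data, the difference was 1.04 (exact p = 0.2).

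**Figure D2:**
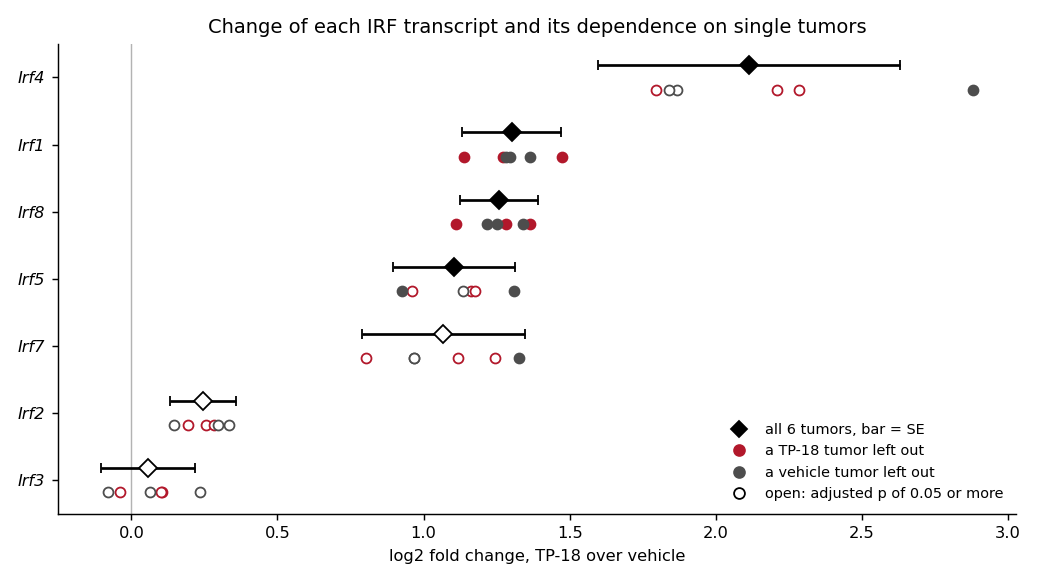
Log2 fold change of each IRF transcript, TP-18 over vehicle, with all 6 tumors (diamond, bar = SE) and with each tumor left out in turn (circles, red for a TP-18 and grey for a vehicle tumor). Filled symbols have an adjusted p under 0.05, which holds in every fit for Irf1 and Irf8, and without vehicle 3 alone among the single-tumor fits for Irf4 and Irf7.

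The 7 genes fell into profiles that differed in how single tumors ranked. TP-18 2 had the most Irf1, Irf2, Irf4, Irf5, Irf7 and Irf8 of all tumors, but not the most Irf3. TP-18 3 had the least Irf1, Irf2, Irf5, Irf7 and Irf8 of the TP-18 tumors and their highest Irf3. Among vehicle tumors, vehicle 3 had the most Irf1, Irf4, Irf5, Irf7 and Irf8. Coefficients of variation ran from 6.45% for Irf2 to 34.8% for Irf4 in TP-18 tumors, and from 6.06% for Irf1 to 71.4% for Irf4 in vehicle tumors.

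**Figure D3:**
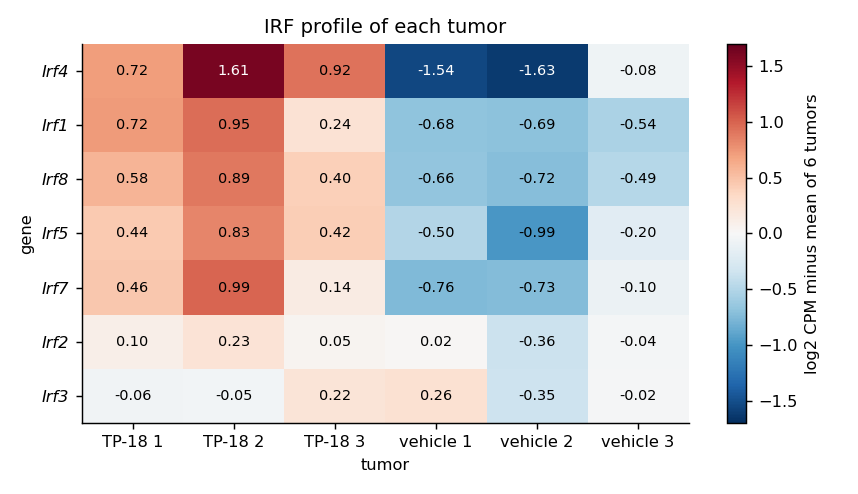
Log2 CPM of each IRF transcript in each tumor minus the gene's mean over the 6 tumors, TP-18 tumors on the left. Irf4 spans from -1.63 in vehicle 2 to 1.61 in TP-18 2, while Irf2 and Irf3 stay between -0.36 and 0.26.

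Likeness was measured as the root mean square difference between 2 genes' log2 CPM over the 6 tumors after each was centred on its own mean, among 11424 other protein-coding genes whose mean log2 CPM was 1 or more (11425 for Irf4, which lies below that level itself). This centring keeps the difference between the groups, so genes with similar log2 changes tend to lie close together. By this measure the gene most like Irf1 was Irf8, at 0.09, against a median of 0.70 for all genes compared. Their log2 changes were 1.30 and 1.26. Psmb9, a subunit of the immunoproteasome, and Samhd1, which breaks down nucleotides, were next for Irf1, both at 0.10. For Irf8 itself the nearest were Parp12 at 0.06, Samhd1 at 0.07 and Psmb9 at 0.09. Parp12, an interferon-induced ADP-ribosyltransferase, measured 142 ± 25.5 CPM in TP-18 and 64.6 ± 5.83 CPM in vehicle tumors.

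The genes nearest to Irf7 were Spats2l at 0.04, Rtp4 at 0.08 and Cmpk2, a nucleotide kinase induced by interferon, at 0.08. Those nearest to Irf5 were Myh10, a nonmuscle myosin, at 0.05, Fcgr1, a high-affinity Fc receptor of phagocytes, at 0.06 and Selplg, a ligand of selectins, at 0.09. For Irf4 the nearest were Fgl2 at 0.22, Ly6a at 0.25 and Acod1, which makes itaconate in macrophages, at 0.27, where the median of all genes was 1.25. Irf2 lay nearest to Ifi204, Mcee and Dcxr at 0.04 to 0.05 and Irf3 to Mmachc, Lpcat3 and Snrnp35 at 0.05, where the medians of all genes were 0.26 and 0.27, since genes that vary little lie near many others.

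Levels of different genes were compared per length, as FPKM, where the authors divided each count by a gene length and the library total. In TP-18 tumors the order was Irf7 at 113 ± 32.6, Irf1 at 67.9 ± 15.04, Irf8 at 27.7 ± 4.40, Irf3 at 14.6 ± 1.88, Irf5 at 6.45 ± 0.97, Irf2 at 4.55 ± 0.22 and Irf4 at 0.665 ± 0.222 FPKM (SD, n = 3). In vehicle tumors it was Irf7 at 48.6 ± 11.8, Irf1 at 25.0 ± 1.12, Irf3 at 12.7 ± 3.15, Irf8 at 10.5 ± 0.74, Irf2 at 3.49 ± 0.56, Irf5 at 2.72 ± 0.70 and Irf4 at 0.138 ± 0.094 FPKM. No neighbours in the TP-18 order had overlapping values. In vehicle tumors Irf3 overlapped Irf8 and Irf2 overlapped Irf5, and both pairs were apart in TP-18 tumors. The 7 together summed to 226, 289 and 188 FPKM in TP-18 tumors and 102, 89.0 and 118 FPKM in vehicle tumors. These FPKM carry no TMM scaling. The median log2 change of all genes tested on log2(FPKM + 0.1) was 0.12, against -0.01 on TMM-scaled counts.

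The middle of this order depended on gene length. The deposited FPKM of Irf2 used 12519 bases and that of Irf5 7512, while the longest principal coding transcripts in GENCODE M21 are 2497 and 2241 bases. Principal transcript lengths, a choice made after seeing the data, moved Irf2 above Irf5 and Irf3 in TP-18 tumors. In vehicle tumors they moved Irf2 above Irf3 and Irf8. The values of Irf2 then overlapped those of Irf5 in TP-18 tumors and those of Irf3 in vehicle tumors. Irf5 also moved above Irf3 in TP-18 tumors, with overlap. Irf7 and Irf1 stayed at the top and Irf4 at the bottom in both groups. Irf8 came next after Irf1 in TP-18 tumors, while in vehicle tumors Irf2 and Irf3 stood between them. On that scale Irf7 and Irf1 measured 114 ± 32.9 and 107 ± 23.6 in TP-18 tumors, which overlap, and 49.1 ± 11.9 and 39.3 ± 1.76 in vehicle tumors.

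**Figure D4:**
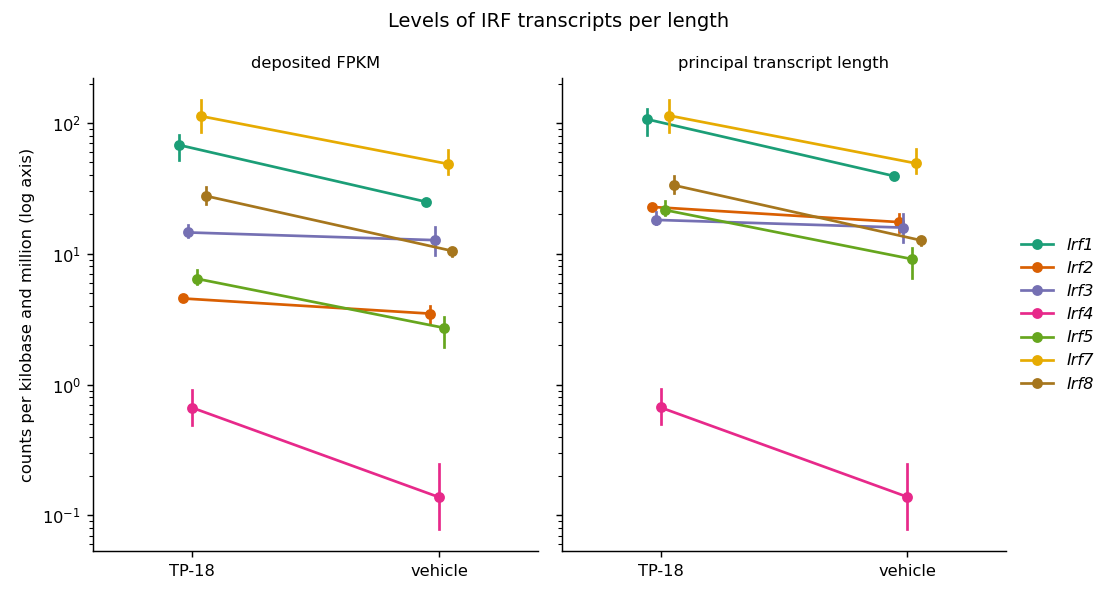
Mean level of each IRF transcript per length and library total, in FPKM units, in TP-18 and vehicle tumors on a log axis, with vertical lines from the lowest to the highest of 3 tumors. Irf8 lies above Irf3 in TP-18 tumors under both the deposited FPKM (left) and principal transcript lengths (right), and Irf7, Irf1 and Irf4 keep their places.

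In bulk tumors more cells of a type and more RNA per cell cannot be told apart, and leukocyte transcripts differed along with the IRF genes. Ptprc, which encodes CD45 of all leukocytes, had 136, 155 and 140 CPM in TP-18 tumors and 53.7, 50.0 and 62.3 CPM in vehicle tumors, a log2 change of 1.38 (edgeR adjusted p = 0.00131). Of a list of 6 pan-leukocyte genes 4 rose, and their summed level was 852 to 965 CPM in TP-18 tumors and 510 to 652 CPM in vehicle tumors. Cd53 and Arhgdib, the other two, had log2 changes of 0.36 and 0.15.

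Relative to the mean of these 6 genes, the log2 level of Irf8 was 0.37 higher in TP-18 than in vehicle tumors and that of Irf4 0.72. This scale adds 0.5 CPM to each level. Both were without overlap but barely separated, with Irf8 at -0.763 in TP-18 3 and -0.773 in vehicle 2. Irf4 was at -5.50 in TP-18 1 and -5.55 in vehicle 3. The differences for Irf1 at 0.40, Irf5 at 0.24 and Irf7 at 0.18 came with overlap between groups. Irf2 and Irf3, whose own log2 changes were 0.25 and 0.06, were lower relative to the 6 genes by 0.62 and 0.80 in TP-18 tumors, without overlap. Any gene that changes less than the 6 genes comes out lower on this measure. Exact two-sided permutation p-values were 0.1 for Irf2, Irf3, Irf4 and Irf8, the smallest that 3 against 3 allows. Relative to Ptprc alone, Irf1 had a difference of -0.10, Irf5 of -0.26, Irf7 of -0.32 and Irf8 of -0.14, so their direction against leukocyte transcripts turned with the gene taken as the measure. It did not turn for Irf4 at 0.22, Irf2 at -1.12 or Irf3 at -1.30. The size for Irf4 depended on the added 0.5 CPM, since with nothing added its difference was 1.41 to the 6 genes (exact p = 0.1) and 0.90 to Ptprc (exact p = 0.3). Irf5 and Irf8 then had differences of 0.25 and 0.37 to the 6 genes.

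**Figure D5:**
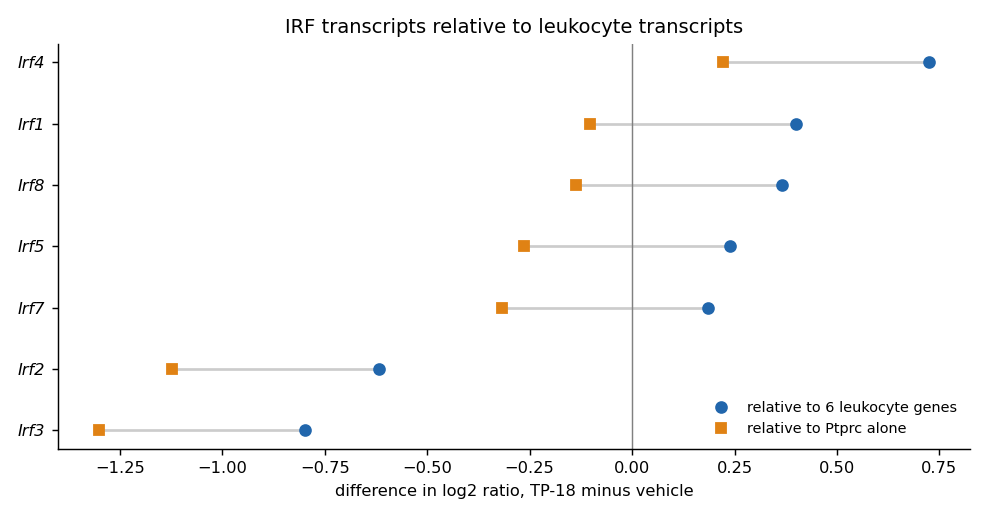
Difference between TP-18 and vehicle tumors in the log2 ratio of each IRF transcript to leukocyte transcripts, measured as the mean of 6 pan-leukocyte genes (circles) or as Ptprc alone (squares). Irf1, Irf5, Irf7 and Irf8 lie on opposite sides of 0 under the 2 measures, and Irf2 and Irf3 lie below 0 under both.

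Markers of some other cell types moved too, and their part in the IRF results was not tested. Counts of called markers are read beside the 7.09% of all tested genes called higher and the 5.26% called lower. The marker lists were chosen with earlier results of these data known. T cell markers, 10 of 10 higher with all 6 tumors, summed to 90.1 to 98.8 CPM in TP-18 and 16.6 to 33.3 CPM in vehicle tumors. Leaving out TP-18 1 gave 5 calls, leaving out TP-18 2 or TP-18 3 gave 4 each, and leaving out vehicle 2 gave 6. NK cell markers, 6 of 6 higher in every leave-one-out fit as well, summed to 57.6 to 63.9 CPM in TP-18 and 13.1 to 16.4 CPM in vehicle tumors. Cross-presenting dendritic cell markers, 6 of 6 higher and 4 to 6 with a tumor left out, summed to 201 to 212 CPM in TP-18 and 131 to 143 CPM in vehicle tumors. Cadm1 made up most of each sum, at a mean of 128 CPM in TP-18 and 108 CPM in vehicle tumors. Its log2 change was 0.25, a call that held in 1 of 6 leave-one-out fits. Of 7 tested plasmacytoid dendritic cell markers 4 rose and 1, Cox6a2, fell, and the sums overlapped, at 346 to 493 CPM in TP-18 and 308 to 364 CPM in vehicle tumors. The 4 became 2 without TP-18 1 or TP-18 2, 0 without TP-18 3, 1 without vehicle 2 and 3 without either other vehicle tumor, and 1 marker was lower without TP-18 3 and 0 in the other fits. Siglech, a receptor that defines these cells, had 65, 184 and 153 counts in TP-18 tumors and 13, 22 and 6 in vehicle tumors. Ly6d, too scarce to be tested, had 12, 1 and 66 counts in TP-18 tumors and 0 in each vehicle tumor. At such counts both made up only a small part of the sums. Of 11 macrophage and monocyte markers 2 rose, 1 without any one TP-18 tumor and 5 without vehicle 1, with sums of 1627 to 1739 CPM in TP-18 and 882 to 1365 CPM in vehicle tumors.

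Of the 3 tested markers of B and plasma cells, 2 rose, 1 without TP-18 2 or TP-18 3, and the whole list of 7 summed to 3.15 to 5.58 CPM in TP-18 and 0.437 to 1.28 CPM in vehicle tumors. Skeletal muscle markers (4 of 6 higher, but 2 without TP-18 1, TP-18 3 or vehicle 2) summed to 45.8 to 88.5 CPM in TP-18 and 8.09 to 21.9 CPM in vehicle tumors. Red blood cell markers (4 of 5 lower, but 0 without vehicle 2 or any one TP-18 tumor) summed to 14.8 to 33.9 CPM in TP-18 and 66.3 to 395 CPM in vehicle tumors. Neutrophil markers, 0 of 6 tested called, summed to 59.1 to 91.7 CPM in TP-18 and 33.2 to 328 CPM in vehicle tumors. Endothelial and fibroblast sums also overlapped, with 0 of 6 and 0 of 7 markers called. Adipocyte markers, 0 of 3 tested called, summed to 42.3 to 70.5 CPM in TP-18 and 19.3 to 35.2 CPM in vehicle tumors. Of 6 genes of tissue handling and stress 1 fell, 0 without any one TP-18 tumor and 4 without vehicle 1, and their sum was 305 to 333 CPM in TP-18 and 590.1 to 738 CPM in vehicle tumors.

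The genes around the IRF family were read from 9 lists with 130 distinct genes, of which 124 were tested. Of these, 63 rose, 50.8% of those tested where 7.09% of all genes did, and 3 fell. The median log2 change was 0.76, and 31 of the 66 calls held in all 6 leave-one-out fits. Without vehicle 2 the 63 became 35, and the 3 became 1 without TP-18 1, TP-18 3, vehicle 2 or vehicle 3. The lists were chosen with earlier results of these data known, so their share beside that of all genes is descriptive and no test.

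Upstream, 6 of 13 tested genes of interferon ligands, receptors, JAKs and STATs rose and 0 fell, with a median log2 change of 0.22, and 2 of the 6, Ifng among them, were called in all 6 leave-one-out fits, the fit without vehicle 2 calling no others. Ifng, the ligand that induces Irf1, had 134, 166 and 87 counts in TP-18 tumors and 16, 4 and 12 in vehicle tumors, and its log2 change was 3.42 ± 0.50 (edgeR adjusted p = 0.00727). Ifnb1, a target of IRF3 and IRF7, was not detectable beyond a few reads, with 1, 3 and 1 counts in TP-18 and 1, 1 and 4 in vehicle tumors.

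Stat2, which acts in type I interferon signalling, rose by 1.37 ± 0.23, although leaving out vehicle 2 gave an adjusted p of 0.0721. Socs1, which dampens JAK signalling, rose by 1.08 ± 0.19, with 0.0546 without vehicle 2. Tyk2, a receptor kinase, rose by 0.48 ± 0.09, and lost its call when TP-18 1 (0.0583), TP-18 2 (0.0562) or vehicle 2 (0.0651) was omitted. Stat3 measured 177 ± 12.2 CPM in TP-18 and 179 ± 24.1 CPM in vehicle tumors.

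Sensors, adaptors and kinases that activate IRF3, IRF5 and IRF7 had 11 of 22 members higher and 0 lower, with a median of 0.42, and 4 of the 11 were called in all 6 leave-one-out fits. Leaving out TP-18 1 or TP-18 3 gave 7 calls each, TP-18 2 gave 6 and vehicle 2 gave 4. Those 4 were Tlr3, a receptor for double-stranded RNA, Tlr9, a receptor for DNA, Unc93b1, which escorts both to endosomes, and Ifih1, a cytosolic RNA sensor. Tlr9 had 10.7, 12.5 and 11.4 CPM in TP-18 tumors and 2.90, 1.93 and 1.22 CPM in vehicle tumors, and rose by 2.51 ± 0.30. Tlr3 rose by 1.19 ± 0.13, Unc93b1 by 1.25 ± 0.17 and Ifih1 by 1.06 ± 0.12. Irak1, a kinase of Toll-like receptor signalling, measured 161 ± 5.66 CPM in TP-18 and 171 ± 7.48 CPM in vehicle tumors (edgeR adjusted p = 0.438).

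Among 12 partner transcription factors and coactivators 5 rose and 2 fell, with a median of 0.81, and 5 of the 7 were called in all 6 leave-one-out fits. Batf2, an interferon-induced partner of IRF1, had 48.2, 51.7 and 31.9 CPM in TP-18 tumors and 12.0, 9.95 and 9.37 CPM in vehicle tumors, and rose by 2.07 ± 0.20. The lymphoid factors Ikzf1 and Ikzf3 rose by 1.44 ± 0.17 and 2.51 ± 0.33, and Batf3, which works with IRF8 in cross-presenting dendritic cells, by 2.70 ± 0.47 on 42, 45 and 32 counts in TP-18 and 5, 8 and 3 in vehicle tumors. Spi1, which encodes PU.1, the partner of IRF4 and IRF8, rose by 0.87 ± 0.20 with an adjusted p of 0.0362. That call was lost without TP-18 1 (0.0697), TP-18 2 (0.0991), TP-18 3 (0.109) or vehicle 3 (0.0605). Batf, the partner of IRF4 in T cells, had a log2 change of 1.03 ± 0.35 (edgeR adjusted p = 0.0954). Junb, which pairs with BATF factors, fell by 0.73 (SE 0.10), and Jun was the other gene to fall, a call that held in 1 of 6 leave-one-out fits. Ep300, a coactivator of IRF3, measured 135 ± 5.38 CPM in TP-18 and 117 ± 6.00 CPM in vehicle tumors (edgeR adjusted p = 0.108).

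Of 8 IRF-binding repressors and negative regulators 1 rose, and the median was -0.17. The member that rose was Trim21, a ubiquitin ligase that is itself induced by interferon, at 27.4, 28.9 and 19.9 CPM in TP-18 tumors and 13.4, 11.5 and 9.96 CPM in vehicle tumors. Trim28, a corepressor that modifies IRF7, measured 277 ± 12.7 CPM in TP-18 and 308 ± 13.8 CPM in vehicle tumors (edgeR adjusted p = 0.221).

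Interferon gamma targets that use IRF1 had 18 of 23 members higher and 0 lower, with a median of 1.45, and 13 of the 18 were called in all 6 leave-one-out fits. Cxcl10, a chemokine for activated T cells, rose by 2.01 ± 0.13, Psmb8, an immunoproteasome subunit, by 1.36 ± 0.11 and Gbp2, a guanylate-binding protein, by 2.10 ± 0.19. Cxcl10 had 63.8, 69.7 and 51.6 CPM in TP-18 tumors and 14.9, 14.6 and 16.4 CPM in vehicle tumors, in the same order as Irf1 within the TP-18 group. Cd274, which encodes PD-L1, had 74.2, 154 and 55.8 CPM in TP-18 tumors and 25.1, 28.4 and 54.0 CPM in vehicle tumors, and missed the threshold (edgeR adjusted p = 0.136). B2m, the light chain of MHC class I, had a log2 change of 0.23 ± 0.12.

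ISRE genes induced through IRF3 and IRF7 had 9 of 17 tested members higher and 0 lower, with a median of 0.88, and 2 of the 9, Cxcl10 and Ifi44, were called in all 6 leave-one-out fits. Leaving out TP-18 1 gave 4 calls, TP-18 2 or vehicle 1 gave 5 and vehicle 2 gave 2. Ifi44 had 120, 160 and 98.6 CPM in TP-18 tumors and 45.8, 35.4 and 53.2 CPM in vehicle tumors. Herc6, a ligase that attaches ISG15, rose by 1.50 ± 0.24 with an adjusted p of 0.0674 without vehicle 2, and Ifit2, which binds viral RNA, by 0.70 ± 0.13 with 0.0791 without vehicle 2. Isg15 itself measured 52.5, 70.2 and 45.6 CPM in TP-18 tumors and 34.5, 26.9 and 49.8 CPM in vehicle tumors, with vehicle 3 above TP-18 3 (edgeR adjusted p = 0.182).

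Inflammatory cytokines linked to IRF5 had 2 of 7 tested members higher, Tnf and Il12b, and 0 lower. Tnf had 6.48, 8.43 and 5.05 CPM in TP-18 tumors and 1.79, 1.84 and 1.91 CPM in vehicle tumors, and rose by 1.85 ± 0.25. Il12b, a subunit of interleukin-12, had 64, 52 and 70 counts in TP-18 tumors and 6, 9 and 5 in vehicle tumors. Il1b measured 31.3, 40.1 and 47.3 CPM in TP-18 tumors and 26.5, 25.9 and 137 CPM in vehicle tumors, so that its log2 change of -0.68 became 0.60 without vehicle 3.

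Lymphocyte and dendritic cell genes linked to IRF4 had 6 of 13 tested members higher and 1, Xbp1, lower, with a median of 1.60. The call on Xbp1 held in 0 of the 6 leave-one-out fits, and 3 of the 7 calls held in all of them, with 3 genes higher without TP-18 2 or TP-18 3. Jchain, the joining chain made by plasma cells, had 35, 96 and 85 counts in TP-18 tumors and 2, 2 and 0 in vehicle tumors, so its fold change is poorly bounded. Ikzf2 of regulatory T cells rose by 2.32 ± 0.33 and Icos, a T cell costimulator, by 1.90 ± 0.25. Ccl22, a chemokine of dendritic cells, rose by 1.41 ± 0.27, and lost its call when TP-18 2 (0.0625), TP-18 3 (0.0755) or vehicle 2 (0.0711) was omitted. Prdm1, which drives plasma cell fate with IRF4, measured 19.7, 30.5 and 20.6 CPM in TP-18 tumors and 16.1, 35.0 and 51.1 CPM in vehicle tumors (edgeR adjusted p = 0.473). Klf4 had a log2 change of -0.55 ± 0.19 (edgeR adjusted p = 0.105).

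Dendritic cell and phagocyte genes linked to IRF8 had 9 of 14 members higher and 0 lower, with a median of 1.55, and 2 of the 9, Xcr1 and Wdfy4, were called in all 6 leave-one-out fits. Leaving out TP-18 1 gave 5 calls, TP-18 3 gave 3 and vehicle 2 gave 4. Wdfy4, needed for cross-presentation, had 33.4, 30.4 and 32.5 CPM in TP-18 tumors and 13.7, 8.64 and 8.34 CPM in vehicle tumors. Xcr1, the receptor that marks cross-presenting dendritic cells, had 242, 94 and 178 counts in TP-18 tumors and 26, 7 and 9 in vehicle tumors. TP-18 2 was thus the highest of its group for Irf8 and the lowest for both of these genes. Cybb, an oxidase subunit of phagocytes, rose by 1.86 ± 0.28, with an adjusted p of 0.0675 without vehicle 2. Flt3, the growth factor receptor of dendritic cells, rose by 2.11 ± 0.38, with 0.0641 without TP-18 3 and 0.0552 without vehicle 2. Cd74, the invariant chain of MHC class II, missed the threshold (log2 change 2.24 ± 0.53, edgeR adjusted p = 0.0529).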

How the data were processed

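The labels name TRIzol for RNA and the VAHTS Universal V6 kit for libraries. Per the submitters' processing notes, fastp, HISAT2, HTSeq and GRCm38 were used. Their versions, and whether counting used strand, are not stated in the labels or notes used here. The authors deposited raw read counts for each gene as whole numbers. The deposited FPKM were made by the authors from the same counts, a gene length and the library total, which was checked in 23122 genes.

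Counts were tested in R 4.3.3 with edgeR 4.0.16, on genes kept by filterByExpr (minimum count 10, minimum total 15), with TMM scaling and group as the model. The two-sided robust quasi-likelihood F test was adjusted by Benjamini-Hochberg over all 14189 genes and called under 0.05. Log2 changes are TP-18 minus vehicle, with an SE from the F statistic. Ratios within a tumor used log2(CPM + 0.5), and log2(CPM) as an alternative chosen after seeing the data. P-values rest on the spread between these samples, and those of edgeR also on dispersions moderated across all tested genes. They take each tumor as independent, which the labels do not state.

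Other settings tried were scaling by RLE or upper quartile, no filter, CPM above 1 in 3 libraries, DESeq2 1.42.0, limma-voom (limma 3.58.1), non-robust moderation, limma on log2(FPKM + 1) and log2(FPKM + 0.1), a replicate block, single libraries left out, and a threshold of 0.10. Members and lists were chosen with earlier results of these data known. Named list genes are the up to 4 calls of smallest p per list, the most abundant gene not called and 10 fixed genes. Krt20, Cd44, Siglech, Ly6d, Cox6a2, Cd53, Arhgdib, Cadm1, Jun, Xbp1 and the absent epithelial markers were named after their values were seen. Symbols were matched by Entrez ID to RefSeq positions and promoters (GRCm38.p6), 7 of 7 members. Protein sequences were not used here. Some genes of the lists are not reported here.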

Additional observations from a re-analysis of the deposited data

How the results depend on the processing

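The log2 changes of Irf1 and Irf8 stayed positive and under the threshold in all 18 alternatives. The Irf7 change passed at 1.09 with upper-quartile scaling, 1.06 with DESeq2, 1.06 with limma-voom, 1.07 with non-robust moderation, 1.18 on log2(FPKM + 1), 1.20 on log2(FPKM + 0.1) and 1.07 at a threshold of 0.10. The Irf4 change was 0.54 on unfiltered log2(FPKM + 1) and missed the threshold, and Irf4 fell below the filter of the other FPKM fits. With single libraries left out, the change ran from -0.0796 to 0.24 for Irf3, 1.79 to 2.88 for Irf4, 0.92 to 1.31 for Irf5 and 0.80 to 1.33 for Irf7, and the members called higher numbered 2 to 5. List genes called higher then numbered 35 to 61 and lower 1 to 3. List genes called lower numbered 5 with DESeq2 and 1 in each FPKM fit. The median of all genes was 0.12 on log2(FPKM + 0.1). The change of Stat3, near 0, was 0.0089 with upper-quartile scaling, 0.13 on log2(FPKM + 1) with or without a filter, 0.14 on log2(FPKM + 0.1), and -0.10 to 0.0647 with a library left out, and that of Irak1 was 0.0516 on log2(FPKM + 1) with or without a filter and 0.0528 on log2(FPKM + 0.1). Leaving out a library gave Il1b -1.04 to 0.60, the last without vehicle 3. Ratios to Ptprc in place of the leukocyte list were -0.10 for Irf1, -0.26 for Irf5, -0.32 for Irf7 and -0.14 for Irf8, and with no pseudocount -0.11, -0.25, -0.32 and -0.13 for the same genes. The Irf4 to Irf8 difference was then 1.04 in place of 0.36. The causes were not tested.

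The labels state no pairing by number. Across genes, the correlation of deviations from the group mean was 0.24, -0.08 and -0.04 for tumors 1, 2 and 3 of the 2 groups, and TP-18 2 and TP-18 3 were each closer to a vehicle tumor of another number. With the replicate number as a block 2 members were called, Irf1 and Irf8, with Irf4 at 2.22 (adjusted p = 0.0658) and Irf5 at 1.12 (adjusted p = 0.0745), and 40 list genes were higher and 1 lower. Low counts, in vehicle tumors above all, limit genes such as Irf4, Ifng, Il12b, Xcr1, Jchain, Batf3 and Ifnb1.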
